A study of Mus musculus with 7 samples.

Results

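Genes for 8 secreted proteins and for the 2 subunits of an uptake receptor were followed through chemical reprogramming of mouse fibroblasts. Cultures were kept with or without R406, an inhibitor of the kinase Syk. The genes were grouped under the label of the endoderm that surrounds the early embryo, though some, such as Apoe, are also made by other cells. The 10 genes, of 53715 in the expression table, were Afp, Ttr, Apoa1, Apoe, Spink1, Rbp4, Serpina1e, Mbl2, Cubn and Amn. They were chosen by role, with the difference between R406 and DMSO in these same libraries already known. Their levels and differences are therefore given as a description, without a test.

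All cells were embryonic fibroblasts of OG2 mice (CBA-Tg(Pou5f1-EGFP)2Mnn/J, which carry a fluorescent Pou5f1 reporter), taken at embryonic day 13.5, and those for RNA were used at passage 3. Both RNA groups were kept in the same Stage 1 medium, with basic fibroblast growth factor, vitamin C, Forskolin, CHIR99021, VPA, AM580, Parnate, EPZ004777 and the compound 616452, under a protocol of 12 days, and differed in the added agent. RNA-seq covered 2 libraries with DMSO, the solvent, and 2 with R406. Binding of Nfatc1 was mapped by CUT&Tag, in which an antibody guides the cutting of nearby DNA, using an anti-FLAG antibody on fibroblasts that carried rtTA and a doxycycline-driven Flag-Nfatc1 from a lentivirus, with 1 library after 4 days of DMSO and 1 after 4 days of R406. Nfatc1 in those cells was an introduced, tagged protein. The sources used here do not give the day of RNA harvest or the R406 dose.

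Visceral endoderm, the outer layer of the early embryo and later of the yolk sac, makes serum proteins before the liver takes over that task. These include alpha-fetoprotein (Afp), transthyretin (Ttr), apolipoproteins and retinol-binding protein (Rbp4). The same cells take up proteins and vitamin B12 through cubilin (Cubn), a large receptor that reaches the apical membrane only with its partner amnionless (Amn), and often works together with megalin (Lrp2).

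Levels are in TPM, a transcript's share of a fixed total per unit of length, so genes can be compared within a library, but TPM does not show how many reads stand behind a value. A level of 1 TPM was reached by 13537 to 14045 genes, depending on the library. No label says that replicates came from separate cultures, so differences and p-values below rest on a spread that may be technical. In bulk RNA, more cells that express a gene and more RNA per cell cannot be told apart. The endoderm label was not borne out by Afp and Ttr, the most used markers of visceral endoderm, which were below 1 TPM in all 4 libraries. Of 16 other visceral endoderm markers, 13 lay higher in both R406 libraries, as did 25.9% of all genes that averaged 1 TPM or more. The 13 include Lrp2, Soat2 and Slc39a5, which averaged less. This list was chosen with earlier results of these data known, so the count is no support for the label.

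In DMSO the genes spanned a wide range. Spink1 (89.6 ± 31.3 TPM; each such pair is the mean and SD of 2 libraries) and Apoe (75.1 ± 39.6 TPM) led and overlapped each other. Rbp4 (12.5 ± 1.31 TPM), Amn (6.68 ± 2.35 TPM) and Serpina1e (1.02 ± 0.337 TPM) followed in steps without overlap. Afp, Cubn, Mbl2, Apoa1 and Ttr were all below 1 TPM, and Mbl2 overlapped Cubn, Apoa1 and Ttr. In R406 the order changed to Spink1, Apoe, Amn, Serpina1e and Mbl2, then Cubn, Rbp4 and Apoa1 at nearly one level, and Ttr and Afp last. Amn overlapped Serpina1e, Cubn, Rbp4 and Apoa1 overlapped each other, and Ttr overlapped Afp.

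Both R406 libraries lay above both DMSO libraries for 7 of the 10 genes and below them for 2, Rbp4 and Afp, while the groups overlapped for Apoe. Among the 13929 genes that averaged 1 TPM or more, 25.9% lay above in this way and 30.2% below. Since the genes were chosen with this contrast known, nothing is read from the difference between those shares. The median difference of mean log2(TPM + 1), R406 minus DMSO, was 1.54 over the 10 genes and −0.02 over all genes tested. The mean of 1 TPM was reached by 8 genes, all but Afp and Ttr.

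**Figure D1:**
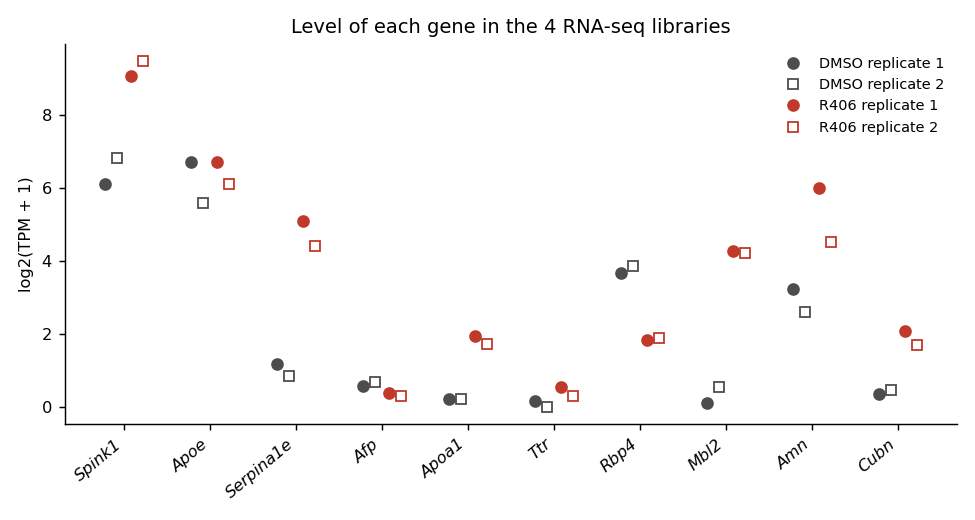
Level of each of the 10 genes as log2(TPM + 1) in each RNA-seq library (grey, DMSO; red, R406; circles, replicate 1; squares, replicate 2; one point per library). Spink1, Serpina1e, Mbl2, Amn, Cubn and Apoa1 are higher in both R406 libraries, Rbp4 is lower in both, Apoe overlaps, and Afp and Ttr stay near the bottom of the axis.

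Spink1 encodes a small secreted inhibitor of trypsin that protects the pancreas and other epithelia, and its TPM was the largest of the 10 genes in R406. It measured 67.5 and 112 TPM in the DMSO libraries and 540 and 711 TPM in the R406 libraries. The lower R406 library stood 4.83 times above the higher DMSO library, and the log2 difference was 2.82. Spink1 made up 35.0% and 62.2% of the summed TPM of the 10 genes in DMSO and 70.3% and 84.0% in R406. In R406 it ranked 285th and 203rd among all listed genes, against 2065th and 1149th in DMSO. The sum over the 10 genes was 193 and 180 TPM in DMSO and 768 and 847 TPM in R406.

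Serpina1e encodes an antitrypsin, a secreted inhibitor of serine proteases of the kind the liver releases into blood. It measured 1.25 and 0.778 TPM in DMSO and 33.1 and 20.2 TPM in R406, so the groups lay far apart, with a log2 difference of 3.75. The ratio of group means was 26.2. Mouse antitrypsin genes are near-identical copies side by side on chromosome 12, where Serpina1e spans 103946931 to 103956897, and reads can be assigned to the wrong copy. Serpina1e took 81.8% and 81.6% of the summed TPM of Serpina1a to Serpina1e in DMSO and 91.0% and 89.9% in R406. The other 4 of these copies summed to 0.280 and 0.176 TPM in DMSO and 3.27 and 2.27 TPM in R406. Among them Serpina1d was highest in R406, at 1.54 and 0.968 TPM, and Serpina1f was listed at 0 in all 4 libraries. None of these copies reached a mean of 1 TPM, so none was tested. Within the same cluster Serpina6, the corticosteroid-binding globulin, measured 0.105 and 0.180 TPM in DMSO and 2.96 and 1.79 TPM in R406 (log2 1.54, limma adjusted p = 0.0311), and its call was lost without DMSO replicate 1 (adjusted p = 0.0813). With a pseudocount of 0.1 its log2 difference was 3.33.

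Afp, the main serum protein of the fetus, measured 0.488 and 0.610 TPM in DMSO and 0.291 and 0.222 TPM in R406. The R406 libraries were the lower ones, and Afp ranked 16912th and 17222nd among the listed genes there. Its neighbour on chromosome 5, the albumin gene Alb (90460870 to 90476602, against 90490714 to 90508907 for Afp), measured 9.76 and 9.72 TPM in DMSO and 4.22 and 4.77 TPM in R406. Alb fell (log2 −0.97, limma adjusted p = 0.0455), but lost the call in each leave-out of 1 library (adjusted p of 0.0627 to 0.219) and with median centring. The other genes of this family in the region, Afm and the vitamin D-binding protein gene Gc, were at 0.353 TPM or lower in each library. Ttr, the carrier of thyroxine and of Rbp4, was at 0.103 TPM in DMSO replicate 1 and listed at 0 in DMSO replicate 2. It measured 0.446 and 0.219 TPM in R406. All 4 Ttr values were too low to carry a fold.

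Rbp4, which carries retinol from its place of storage through the blood, was lower in R406, as was Afp. It measured 11.6 and 13.4 TPM in DMSO and 2.52 and 2.66 TPM in R406. The groups were far apart and each pair of replicates was close, with a log2 difference of −1.91 and a mean 4.84 times higher in DMSO. The gene lies on chromosome 19 (38116620 to 38125321). Among 11 tested genes of retinol and thyroxine handling, 3 rose and 1 fell, with a median log2 difference of 0.10. Lrat, which esterifies retinol for storage, rose from 6.40 ± 1.53 to 24.0 ± 2.36 TPM (log2 1.77, limma adjusted p = 0.0220), and Fabp5, a carrier of fatty acids and retinoic acid, from 63.2 ± 3.34 to 193 ± 22 TPM (log2 1.59). Crabp2, which brings retinoic acid to its nuclear receptor, fell from 294 ± 29.3 to 116 ± 21.8 TPM (log2 −1.35). Stra6, the membrane receptor of Rbp4, stood at 253 ± 24.7 and 171 ± 58.4 TPM (log2 −0.60, adjusted p = 0.271), and Crabp1 at 17153 ± 4658 and 9961 ± 2551 TPM (adjusted p = 0.199). The medium of all groups held AM580, an agonist of retinoic acid receptors. The calls of Lrat, Fabp5 and Crabp2 did not pass without DMSO replicate 1 (adjusted p of 0.0795 to 0.155), Fabp5 and Crabp2 also did so without DMSO replicate 2 (0.0571 and 0.0914), and Crabp2 without R406 replicate 2 (0.0621).

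Mbl2 encodes a mannose-binding lectin, a secreted protein that recognises sugars on microbes and starts the lectin pathway of complement. It measured 0.0787 and 0.446 TPM in DMSO and 18.4 and 17.5 TPM in R406, a log2 difference of 3.92 and the largest of the 10 genes on this scale. The lower R406 library stood 39.3 times above the higher DMSO library. That fold is rough, since both DMSO values are below 1 TPM and far from each other. With a pseudocount of 0.1 the log2 difference of Mbl2 was 5.85. Mbl1, its close relative, was listed at 0 in all 4 libraries, as was Fcnb. Of 8 tested genes of the lectin pathway, 0 rose and 2 fell by limma's adjusted p, while 2 were higher and 2 lower at an unadjusted p under 0.05. Over all 13929 genes tested, 3736 had an unadjusted p under 0.05. The median log2 difference of the 8 genes was −0.07. Fcna, a ficolin made by macrophages, had 2.68 ± 0.913 TPM in DMSO and fell to 0.127 ± 0.0434 TPM in R406 (limma adjusted p = 0.0271, log2 −1.69), and Colec12, a scavenger receptor with a collectin domain, from 241 ± 12.1 to 108 ± 4.34 TPM (log2 −1.14, adjusted p = 0.0302). With a pseudocount of 0.1 the log2 difference of Fcna was −3.59. Neither gene passed without DMSO replicate 1 (0.0544 and 0.15), and Colec12 also in the other 3 leave-outs (0.0550 to 0.168). Masp1, a protease that binds to mannose-binding lectin, was abundant in both groups, at 775 ± 74.6 and 677 ± 53.0 TPM (adjusted p = 0.588), and C3 stood at 7.08 ± 1.74 and 16.1 ± 2.23 TPM (adjusted p = 0.0619). Beside Fcna, the summed TPM of 12 macrophage markers was 272 and 233 in DMSO and 7.44 and 7.62 in R406. In DMSO most of that sum was Lyz2, at 207 and 179 TPM, and 3 of the 12 markers were under 1 TPM in each library. The part of macrophages in the fall of Fcna was not tested.

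The 250 bases before the start of Mbl2 in the promoter table (chr19:30232678-30232927, plus strand, GRCm38.p6, RefSeq) are shown as those of the gene with the largest difference. Capitals mark TTATCT, the reverse complement of the GATA motif AGATAA, 34 bases before that start. The start lies inside the gene as annotated from 30232906 to 30239687, so the last bases shown are within the gene.
Mbl2: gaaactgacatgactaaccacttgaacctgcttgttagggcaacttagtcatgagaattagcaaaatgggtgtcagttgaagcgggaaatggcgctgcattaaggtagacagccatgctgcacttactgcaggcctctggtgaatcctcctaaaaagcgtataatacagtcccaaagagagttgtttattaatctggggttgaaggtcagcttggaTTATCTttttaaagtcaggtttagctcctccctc
AGATAA, on either strand, was found in 11.2% of 32851 windows of the same length around annotated mouse starts. Among the 8 genes of interest with an entry in the promoter table, Mbl2 was the 1 with this match.

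Apoa1 encodes the main protein of high-density lipoprotein. It measured 0.166 TPM in both DMSO libraries and 2.87 and 2.29 TPM in R406, a log2 difference of 1.61. With a pseudocount of 0.1 that difference was 3.32, and the ratio of group means was 15.5. The gene sits on chromosome 9 (46228630 to 46230469) in a cluster of apolipoprotein genes. There Apoa4 rose from 0.314 ± 0.0401 to 3.04 ± 0.877 TPM (log2 1.60, limma adjusted p = 0.0268, and 0.0726 without DMSO replicate 1), or by 2.90 on the log2 scale with a pseudocount of 0.1. Apoc3, which lies between these genes, measured 0.122 and 0.145 TPM in DMSO and 0.526 and 0.408 TPM in R406, and Apoa5 was listed at 0 in all 4 libraries.

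Apoe, a ligand of lipoprotein receptors made by macrophages, fibroblasts, liver and many other cells, was the gene whose groups overlapped. It measured 103 and 47.1 TPM in DMSO and 105 and 68.2 TPM in R406, so replicate 1 was the higher library in each group. The DMSO libraries differed 2.19 times and the R406 libraries 1.53 times, while the group means differed 1.15 times (log2 0.27). The difference was 0.83 without DMSO replicate 1 and 0.58 without R406 replicate 2, and turned to −0.28 without DMSO replicate 2 and −0.03 without R406 replicate 1. The macrophage marker sums given above differed far more between the groups than Apoe did, and the part of these cells in its level was not tested. Apoe lies on chromosome 7 (19696244 to 19701310), and its neighbours Apoc1 and Apoc2 were listed at 0 in all 4 libraries.

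Of 17 tested genes of apolipoproteins and lipoprotein handling, 2 rose and 2 fell, with a median log2 difference of 0.01. Besides Apoa4, the lipoprotein lipase gene Lpl had 2.56 ± 0.528 TPM in DMSO and rose to 15.1 ± 3.38 TPM in R406 (limma adjusted p = 0.0183, log2 2.17). The endothelial-type lipase gene Lipg fell from 28.2 ± 0.318 to 10.6 ± 0.218 TPM (log2 −1.33), and Clu, a secreted chaperone also called apolipoprotein J, from 137 ± 6.32 to 34.9 ± 8.44 TPM (log2 −1.96). Clu and Lipg did not pass when DMSO replicate 1 was left out (adjusted p = 0.0589 and 0.107), nor did Lipg without DMSO replicate 2 (0.0850). Apob, the scaffold of lipoproteins secreted by yolk sac and liver, was at 0.0435 TPM or less in each library, and Apoc1, Apoc2, Apoa5 and Apof were listed at 0. P4hb, Pltp and Angptl4 were the most abundant of these without a call, with P4hb at 690 ± 73.0 and 645 ± 100 TPM (adjusted p = 0.810).

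**Figure D2:**
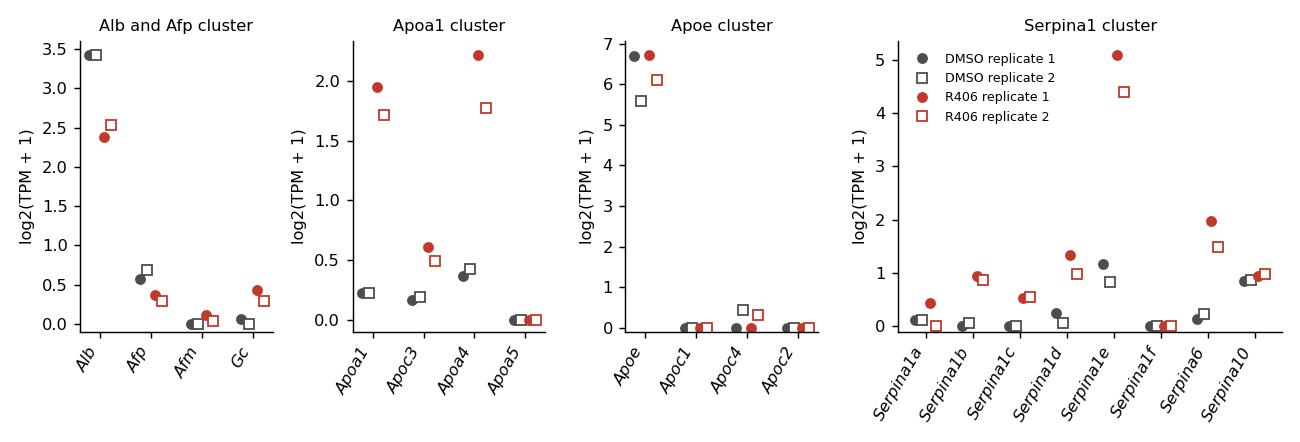
Levels as log2(TPM + 1) of the genes in 4 chromosomal clusters that hold Afp, Apoa1, Apoe and Serpina1e (grey, DMSO; red, R406; circles, replicate 1; squares, replicate 2; each panel has its own scale). Alb is lower in both R406 libraries, Apoa1 and Apoa4 are higher in both, Apoe stands alone above its neighbours, and Serpina1e stands above its copies.

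The uptake receptor subunits were both higher in R406, at unequal levels. Cubn, the ligand-binding part, measured 0.281 and 0.383 TPM in DMSO and 3.21 and 2.22 TPM in R406 (log2 1.47). Amn, the membrane anchor, measured 8.35 and 5.02 TPM in DMSO and 62.9 and 22.1 TPM in R406 (log2 2.36). On this scale the low values of Cubn are held down by the added 1 TPM: with a pseudocount of 0.1 the log2 differences were 2.69 for Cubn and 2.51 for Amn, and the ratios of group means were 8.18 and 6.36. Both groups were separate for each subunit, but the R406 libraries of Amn differed 2.85 times from each other, the widest gap of the 10 genes within R406. Amn exceeded Cubn 29.7 and 13.1 times in DMSO and 19.6 and 9.97 times in R406, so the ratio overlapped between the groups. Cubn lies on chromosome 2 (13276338 to 13491876) and Amn on chromosome 12 (111271096 to 111276426).

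Megalin and the adaptor Dab2, named here for their work with cubilin, were measured beside it. Lrp2 measured 0.457 and 0.390 TPM in DMSO and 1.15 and 0.717 TPM in R406, so its R406 libraries were the higher ones, at a level too low to be tested. Dab2 stood at 6.97 ± 2.78 and 5.50 ± 0.437 TPM (log2 −0.25, limma adjusted p = 0.653). Of 26 tested endocytic receptors and adaptors, 0 rose and 0 fell by limma's adjusted p, while 1 was higher and 5 lower at an unadjusted p under 0.05. Over all 13929 genes tested, 3736 had an unadjusted p under 0.05. That number was not split by direction, so it gives no background for a lean, and none is read from these counts. The median log2 difference of the 26 genes was −0.17. The most abundant were Lrp1, a broad scavenger receptor (174 ± 122 and 104 ± 39.5 TPM, adjusted p = 0.580), the vitamin B12 carrier gene Tcn2 (158 ± 45.5 and 139 ± 40.8 TPM, 0.764) and Lrpap1, a chaperone of this receptor family (94.2 ± 12.4 and 87.6 ± 19.7 TPM, 0.806). Whether Cubn and Amn differed from these genes in their change was not tested, since the first were chosen with their change known.

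Set by role, 109 related genes were tested, of which 19 rose and 15 fell (17.4% and 13.8%), against 4.26% higher and 4.05% lower among all 13929 genes. The related genes were picked with earlier results of these data known. Their median log2 difference was −0.07. With no filter on low values, 0 of these 34 calls passed. They also rested in part on single libraries: 10 of them passed in each of the 4 leave-outs, and leaving out DMSO replicate 1 gave 8 related genes higher and 2 lower. Leaving out DMSO replicate 2 gave 16 and 7, and leaving out R406 replicate 2 gave 23 and 9. Over all genes those leave-outs gave 159 and 158, then 383 and 335, then 914 and 496, against 593 and 564 with all libraries.

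**Figure D3:**
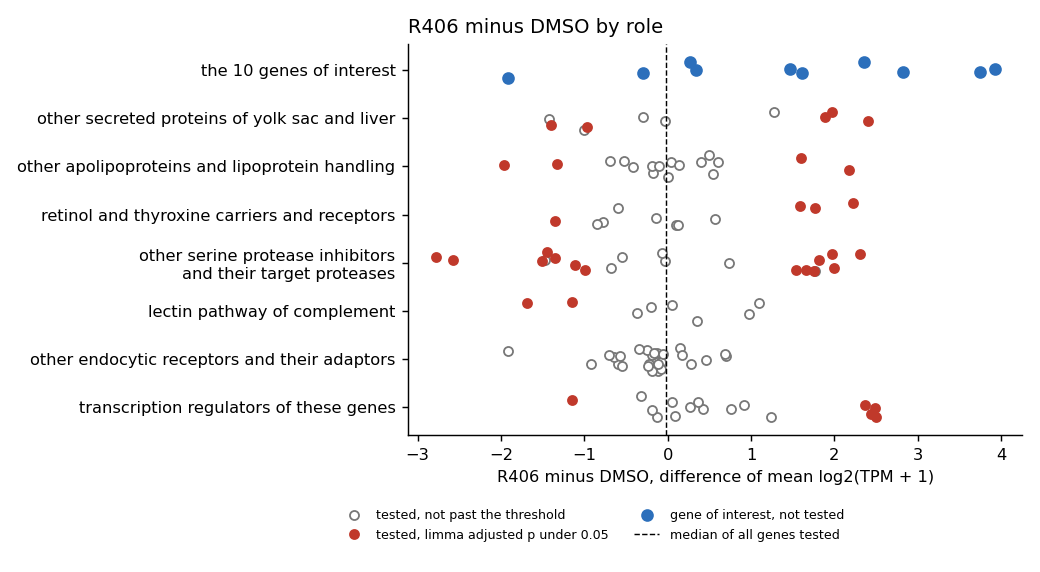
R406 minus DMSO difference of mean log2(TPM + 1) for the 10 genes of interest (blue, untested) and for tested related genes by role (red, limma adjusted p under 0.05; open, not past it; 1 point per gene, with vertical scatter for legibility). The dashed line is the median of all genes tested at −0.02; the endocytic receptor row holds no red point, while the protease and inhibitor row holds 7 on each side.

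Other secreted proteins of yolk sac and liver moved in both directions. Of 10 tested, 3 rose and 2 fell (median log2 difference −0.16), and 20 of the 30 listed were below a mean of 1 TPM. F2, which encodes prothrombin, rose from 1.27 ± 0.334 to 11.3 ± 4.21 TPM (log2 2.40, limma adjusted p = 0.0209). Serping1, the inhibitor of complement C1, rose from 37.8 ± 0.126 to 142 ± 0.810 TPM (log2 1.88, 0.0148), and the growth factor-binding protein gene Igfbp1 from 0.438 ± 0.261 to 4.91 ± 2.63 TPM (log2 1.98). Itih2, a hyaluronan-binding plasma protein, fell from 4.28 ± 0.0631 to 1.01 ± 0.107 TPM (log2 −1.39), as did Alb. Igfbp1 and Itih2 did not pass when DMSO replicate 1 was left out (adjusted p = 0.0979 and 0.0749), and the log2 difference of Igfbp1 was 3.20 with a pseudocount of 0.1. Rnase4, Serpinf1 and Fetub were the most abundant without a call, Rnase4 at 1001 ± 29.5 and 980 ± 18.1 TPM, and the fibrinogen and plasminogen genes Fga and Plg were listed at 0, as was Orm1.

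Serine proteases and their inhibitors, the partners of Spink1 and Serpina1e, included 7 genes that rose and 7 that fell among 21 tested, with a median log2 difference of −0.07. Spint2, a membrane-bound inhibitor of epithelial proteases, rose from 50.9 ± 3.38 to 265 ± 96.3 TPM (log2 2.31, limma adjusted p = 0.0216), and Serpina3g from 6.15 ± 0.587 to 24.2 ± 2.63 TPM (log2 1.82). Both plasminogen activators were lower. Plat fell from 221 ± 24.4 to 36.3 ± 4.26 TPM (log2 −2.57, 0.0125) and Plau from 8.95 ± 0.378 to 2.65 ± 0.355 TPM (log2 −1.45, 0.0223). Serpine2, a broad inhibitor of such proteases, fell from 867 ± 133 to 307 ± 70.9 TPM (log2 −1.50). The collagen chaperone Serpinh1 stood at 524 ± 346 and 442 ± 56.4 TPM. Trypsinogen genes, whose product Spink1 inhibits in the pancreas, were low: Prss1 was at 0.0814 TPM or less and Prss2 between 0 and 1.11 TPM. Without DMSO replicate 1, 11 of the 14 calls were lost (adjusted p of 0.0532 to 0.207), among them Serpina3g, Plau, Serpine2 and Serpina6, and without DMSO replicate 2, 7 (0.0510 to 0.163), among them Plau and Serpine2. Serpine2 also lost its call without R406 replicate 2 (0.0590). Spint2 and Plat passed in all 4 leave-outs.

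Transcription regulators known to act on these genes were tested in 16 cases, of which 4 rose and 1 fell, with a median log2 difference of 0.40. Foxa2, a forkhead factor of endoderm, rose from 1.91 ± 0.419 to 14.4 ± 5.17 TPM (log2 2.37, limma adjusted p = 0.0209). Gata4 and Sox17 rose too (log2 2.50 and 2.49). Foxa1 fell from 3.70 ± 0.417 to 1.12 ± 0.325 TPM (log2 −1.15). Hnf4a, a nuclear receptor that drives many liver and yolk sac genes, measured 0.0595 and 0.556 TPM in DMSO and 2.64 and 1.53 TPM in R406 (log2 1.24, adjusted p = 0.0748) and did not pass, while Onecut1 was below 1 TPM in each library. Foxa1 lost its call without DMSO replicate 1, DMSO replicate 2 or R406 replicate 2 (adjusted p of 0.0713 to 0.154), and Sox17 without DMSO replicate 1 (0.0725). The most abundant regulators without a call were Cebpb, Nr2f2 and Nr2f1. Cebpb measured 405.8 and 145 TPM in DMSO and 432 and 146 TPM in R406, a gap between replicates and not between groups.

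Among the 9 marker lists the fibroblast sum was the highest in every library, and most liver cell markers were under 1 TPM. The 14 fibroblast markers summed to 4848 and 3929 TPM in DMSO and 6129 and 4403 TPM in R406, led by Twist1, Thy1 and Col1a1. Under that sum 4 of them lay above in both R406 libraries, 5 below, and 5 overlapped, against 25.9% above and 30.2% below among all genes tested. The 16 visceral endoderm markers, none of them among the 10 genes, were led by Cited1, Ihh and Sox17. They summed to 136 and 142 TPM in DMSO and 1487 and 736 TPM in R406. Of the 16, 13 lay above in both R406 libraries, against 25.9% of all genes tested, in a list chosen with earlier results known. Lrp2, Dab2 and several of the regulators above, Gata4, Sox17, Foxa2 and Hnf4a among them, are also in this list. Of 15 hepatocyte markers, 10 were under 1 TPM in each library and Cyp3a11, Cyp7a1, Otc and Proc were listed at 0. The hepatocyte sum, 229 and 194 TPM in DMSO and 159 and 129 TPM in R406, came mostly from Ass1, which many cells express. Parietal endoderm markers, which fibroblasts share, summed to 3725 and 2828 TPM in DMSO and 4288 and 2686 TPM in R406, mostly Sparc. Under that sum the 12 markers moved both ways: 5 lay above in both R406 libraries, 3 below, and 4 overlapped. Among all genes tested 25.9% lay above and 30.2% below. Lama1 had 7.02 ± 1.30 TPM in DMSO and 47.4 ± 21.4 TPM in R406, and Nid1 212 ± 24.8 and 34.1 ± 2.19 TPM. Of 12 markers of kidney tubule and gut, cells that also use Cubn and Amn, 9 were under 1 TPM in each library and Kap and Umod were listed at 0, while Cdx2 measured 1.80 and 1.60 TPM in DMSO and 13.4 and 6.03 TPM in R406. Choroid plexus markers, the brain tissue that makes Ttr, summed to 421 and 496 TPM in DMSO and 833 and 701 TPM in R406, nearly all of it Aqp1 and Sulf1, with Kcne2 listed at 0. Aqp1 was higher in R406 (362 ± 43.9 and 686 ± 84.8 TPM) and Sulf1 lower (90.8 ± 7.58 and 52.4 ± 0.574 TPM). Of the 10 markers, 5 lay above in both R406 libraries, 1 below and 4 overlapped, beside the shares of all genes given above, and 5 were under 1 TPM in each library. Definitive endoderm markers summed to 26.3 and 26.8 TPM in DMSO and 183 and 89.9 TPM in R406, mostly Sox17, and Cer1 was listed at 0. Among 9 erythroid markers both adult beta-globin genes, Hbb-bs and Hbb-bt, were listed at 0, and the sum was 1.5 and 3.08 TPM in DMSO and 23.4 and 13.2 TPM in R406. Most of it was Hba-a1 (1.35 ± 0.891 and 11.5 ± 4.55 TPM) and Hba-a2 (0.564 ± 0.238 and 6.28 ± 2.61 TPM), both higher in R406. The other 7 were under 1 TPM in each library. The part of any such cell type in the levels of the 10 genes was not tested.

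**Figure D4:**
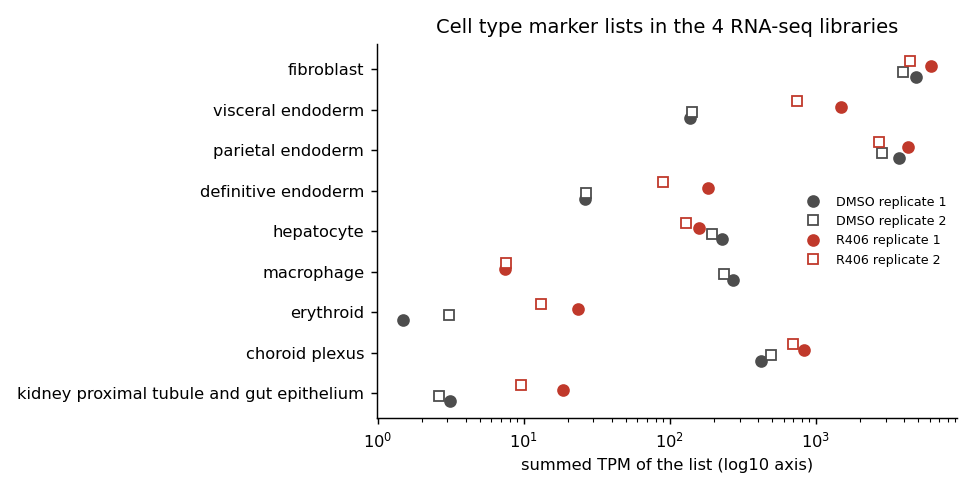
Summed TPM of 9 cell type marker lists on a log10 axis (grey, DMSO; red, R406; circles, replicate 1; squares, replicate 2; 1 point per library). The visceral endoderm sum is 136 and 142 in DMSO and 1487 and 736 in R406, the macrophage sum 272 and 233 against 7.44 and 7.62, and the fibroblast sum lies between 3929 and 6129 throughout. A sum does not show markers that moved in opposite directions.

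The replicates of R406 were not alike for these genes. Replicate 1 was the higher library for 8 of the 10 genes in R406 and for 5 in DMSO. The share of all genes with replicate 1 higher was not determined, so these counts are not read as a trait of the 10 genes. Spink1 and Rbp4, the exceptions in R406, were higher in replicate 2, as they were in DMSO. The visceral endoderm marker sum was likewise higher in R406 replicate 1, as was the fibroblast marker sum (6129 against 4403 TPM).

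Among genes that averaged 5 TPM or more, the 5 whose profile over the 4 libraries was nearest to the average profile of the 10 genes were G0s2, Tpd52, Col13a1, Cgref1 and Angpt4. The distance was Euclidean, between log2(TPM + 1) profiles set to a mean of 0, and ran from 0.0349 to 0.0972 over 8818 genes compared. G0s2, an inhibitor of the lipase of fat droplets and the nearest, measured 9.03 and 8.77 TPM in DMSO and 28.3 and 22.4 TPM in R406. A profile over 4 libraries is shared by many genes with a similar rise, so this is a description only.

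Few of these genes lay near a peak of tagged Nfatc1. In the DMSO library 1 of the 10 genes, Cubn, had a peak within 10 kb, against 44.6% of 20915 protein-coding genes, and in the R406 library 2 had one, Cubn and Apoe, against 60.1%. Each condition had 1 library, so no test was made, and the deposited lists differ in length (21246 and 36885 peaks). The nearest peaks in the R406 list were 12.5 kb away for Afp, 27.1 kb for Apoa1, 29.0 kb for Rbp4 and 52.3 kb for Ttr. They were 73.9 kb away for Mbl2, 98.0 kb for Amn, 114 kb for Spink1 and 183 kb for Serpina1e. In the DMSO list the distances were 23.2 kb for Afp, 31.4 kb for Apoa1, 13.9 kb for Apoe, 29.2 kb for Rbp4 and 147 kb for Ttr, and for Mbl2, Amn, Spink1 and Serpina1e 74.0, 98.2, 103 and 306 kb. Within 50 kb, 5 genes had a peak in each list: Cubn, Apoe, Afp, Apoa1 and Rbp4, of which 2 were higher in R406, 2 lower and Apoe neither. The share of all protein-coding genes within 50 kb of a peak was 65.4% in the DMSO list and 77.8% in the R406 list.

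Cubn is a long gene of 216 kb and held 14 peaks of the DMSO list and 15 of the R406 list, all of them 33.0 kb or more inside the gene. Of these, 10 and 9 overlapped a peak of the other list by at least 1 base. Outside the gene, the R406 list had a peak 4.08 kb before the start, and both lists had one within 5 kb past the end. The highest peaks of the lists overlapped, at 13421578 to 13422987 on chromosome 2 with DMSO and 13421265 to 13422848 with R406, centred 69.6 and 69.8 kb into the gene. Their fold enrichment, the authors' value, was 39.3 in the DMSO list, where Cubn peaks had a median of 9.84, and 87.3 in the R406 list, where the median was 13.3. These folds are on the scale of each list and show no change between conditions. Of 2391 genes of 100 kb or more, 70.8% had a peak within 10 kb in the DMSO list and 85.7% in the R406 list.

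**Figure D5:**
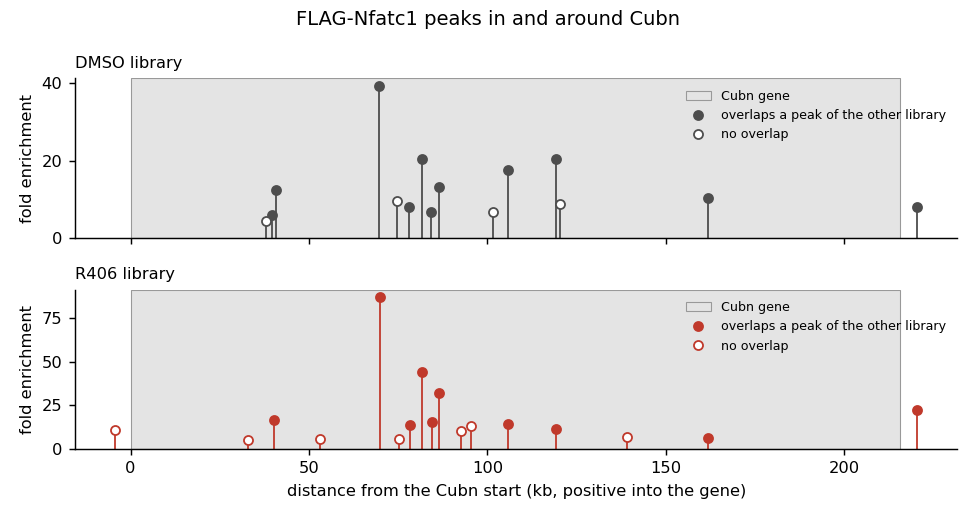
FLAG-Nfatc1 peaks in and near Cubn in the DMSO (upper) and R406 (lower) lists, by distance of the peak centre from the start of the gene in kb; height is the authors' fold enrichment, on a separate scale for each list, filled points overlap a peak of the other list, and grey marks the gene. The highest peak lies 69.6 and 69.8 kb inside the gene, and no peak lies at the start itself.

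The start of Cubn itself (chr2:13491877-13492126, minus strand) held no peak, and is shown because the NFAT core TGGAAA, in capitals, occurs there in a close pair, 71 and 62 bases before the start.
Cubn: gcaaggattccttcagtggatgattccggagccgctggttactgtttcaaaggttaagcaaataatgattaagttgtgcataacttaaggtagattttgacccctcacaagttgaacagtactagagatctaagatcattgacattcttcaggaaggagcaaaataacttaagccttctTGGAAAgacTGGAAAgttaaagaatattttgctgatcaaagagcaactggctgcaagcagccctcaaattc
A peak did lie at an annotated start of Apoe, from 19699090 to 19699732 on chromosome 7, in the R406 list and not in the DMSO list (fold enrichment 9.49, −log10 q-value 13.2). It covered all 300 bases searched around that start, of which the 250 before it are shown (chr7:19699189-19699438, minus strand). That start lies inside the gene as annotated from 19696244 to 19701310, and the peak centre was 1.90 kb into the gene. The other windows of Apoe held 0 bases of the peak. Capitals mark TTTCCA, the reverse complement of the NFAT core.
Apoe: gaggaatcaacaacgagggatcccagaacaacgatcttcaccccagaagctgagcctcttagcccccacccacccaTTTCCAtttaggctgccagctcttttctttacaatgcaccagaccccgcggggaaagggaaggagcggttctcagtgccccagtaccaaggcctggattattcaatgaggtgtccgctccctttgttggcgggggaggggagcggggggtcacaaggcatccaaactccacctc
TGGAAA, on either strand, was found in 21.4% of all windows. Of the 8 genes of interest with a window, 3 had it: Afp, Apoe and Cubn. By window that was 5 of 11, but several of the 5 belong to different starts of Apoe, so they are not separate genes. The peak and the pair of motifs were thus on different genes: Cubn had the pair and no peak at its start, and Apoe had the peak and overlapping RNA levels. TGTTTAC, the motif searched for FOXA factors, was found in 3.65% of all windows and in those of Apoe and Rbp4. CAAAGTCCA, for HNF4, was found in 0.475% and in none of these genes. GTTAAT, a part of the HNF1 motif, was found in 7.10% of all windows and in those of Afp, Apoe and Serpina1e. A match describes letters in a window and says nothing of binding.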

How the data were processed

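RNA-seq was deposited by the authors as TPM per gene in 1 table, to which all 4 single-library files were equal. HISAT2 2.1.0 and StringTie 2.0 are named, with mm10, in the submitters' processing notes; how reads that match several copies were treated, and the annotation, are not given. TPM keeps no depth, and a rise of some genes lowers all others. A symbol was found for 53620 of 53715 gene IDs. The 13929 genes that averaged 1 TPM or more were compared on log2(TPM + 1) with limma 3.58.1 (R 4.3.3), two-sided, with a trend and Benjamini-Hochberg adjustment over all of them at 0.05. The script was tested on simulated data.

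Peaks were deposited as 1 list per CUT&Tag library, with the authors' fold enrichment and −log10 p-values and q-values per peak. Bowtie2 2.2.5 and MACS2 2.1.2 on mm10 were among the tools per the submitters' processing notes; the control used in calling is not given, and the blank library was not analysed here. Gene positions and promoter windows, 250 bases before to 50 after a start, came from RefSeq on GRCm38.p6, the same build; 8 of the 10 genes had a window, and Ttr and Spink1 had none.

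The 10 genes, 8 lists by role and 9 marker lists were chosen with earlier results of these data known. From each list the text names up to 6 called genes by smallest p and up to 3 further genes by level, and from each marker list the most abundant and those listed at 0; Lrp2, Dab2, Hnf4a, Onecut1, Prss1, Prss2, Apob and Serpine2, and cluster neighbours, were named for their role or after their values were seen. Some genes of the lists enter the counts but are not reported here by name. Alternatives were other pseudocounts, filters and scalings, a replicate block, and leaving out each library.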

Additional observations from a re-analysis of the deposited data

How the results depend on the processing

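No difference of the 10 genes that separated the groups changed its direction under any alternative run, and 7 or 8 of them lay above in R406 throughout. Their median log2 difference was 2.60 with a pseudocount of 0.1, 2.07 with 0.5, 2.00 when TPM was rescaled after removing ribosomal protein, mitochondrial and Gm genes, and 1.38 to 1.70 when 1 library was left out. Apoe ranged from −0.28 to 0.83. Leave-outs gave 159 to 914 genes higher and 158 to 574 lower over all genes, and 8 to 23 and 2 to 14 among related genes. All genes higher and lower numbered 311 and 332 with a mean of at least 5 TPM (8 related genes lower), 1162 and 996 with the rescaled TPM, and 933 higher with median centring. With no filter limma called 0 and 0, and 0 and 0 related genes. The cause of these shifts was not tested. With the replicate number as a replicate block the counts were 2128 and 2535, and 30 and 29 related genes. Same-numbered libraries deviated together (r = 0.556 across genes, which are not independent replicates), but the labels do not tie a number to a culture or day, so the libraries were not treated as paired. Within 50 kb, 5 of the 10 genes had an Nfatc1 peak in each list, against 65.4% and 77.8% of all protein-coding genes. Depth is unknown for TPM, so values under 1 TPM, such as those of Afp and Ttr, have no counting error attached.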
